A study of Homo sapiens with 6 samples.

Results

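The genes described are the 4 receptors of the ERBB family (EGFR, ERBB2, ERBB3 and ERBB4) and 6 of their ligands (EGF, TGFA, AREG, EREG, HBEGF and NRG1). They were taken by symbol, 10 of 51698 gene entries in each deposited table, and each symbol was 1 entry. Total RNA of 6 human cell lines from prostate cancer was sequenced, 3 labelled castration sensitive (LnCaP, VCaP and LAPC4) and 3 labelled castration resistant (LnCaP-abl, VCaP-CR and LAPC4-CR), each with 1 library. The sensitive lines were kept with 10% serum, VCaP in DMEM medium and the other 2 in RPMI. All 3 resistant lines grew in RPMI with 10% charcoal-stripped serum, which is poor in steroids, and B27 supplement, and no line received another treatment. State and medium therefore differed together in every pair and cannot be told apart, and in the VCaP pair the basal medium differed too. Each resistant line is a single line per parent, so the 3 pairs are the only replicates of the comparison.

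ERBB receptors are tyrosine kinases of the cell surface that signal as pairs. EGF, TGFA and AREG bind EGFR, HBEGF and EREG bind EGFR and ERBB4, and NRG1 binds ERBB3 and ERBB4. ERBB2 has no known ligand and acts as a partner of the others, and ERBB3 has little kinase activity of its own and signals to phosphoinositide 3-kinase through its partners. The ligands are made as membrane proteins and cut free by sheddases, and signalling runs on through RAS and ERK. In the prostate, ERBB signalling has long been studied as a route by which tumour cells depend less on androgen.

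Levels are given as counts and as scaled FPKM, which is the deposited FPKM (counts relative to gene length and library total) divided by 1 factor per library, between 0.847 and 1.11. Total counts were 8661337 to 12393880 in the sensitive and 10892158 to 22433655 in the resistant libraries, and the resistant library was the deeper of each pair. The share of counts on protein-coding genes was also higher in the resistant library of each pair. With the sensitive line first, it was 67.8% and 77.4% (LnCaP pair), 62.8% and 68.0% (VCaP pair) and 68.3% and 79.5% (LAPC4 pair). Scaling factors from protein-coding genes were tried, and otherwise the part of this difference in the results was not tested. KLK3, the gene of prostate-specific antigen, was lower in all 3 resistant libraries, and ERG was at 16.9 in VCaP, 5.46 in VCaP-CR and at most 0.186 scaled FPKM elsewhere. All 7 luminal epithelial markers passed the minimum mean of 1 scaled FPKM. Of the markers of other cell types, 0 of 4 basal, 0 of 5 leukocyte, 0 of 3 endothelial and 1 of 6 fibroblast genes passed, and none was at 0. The 1 that passed was LUM, a matrix proteoglycan gene, at 3.94 in VCaP and 50.2 in VCaP-CR. The summed fibroblast markers ran from 1.89 to 5.28 in the sensitive and from 1.96 to 51.6 in the resistant libraries. The summed basal markers were 1.79 in LAPC4 and 4.59 in LAPC4-CR, against 2.11 and 1.22 for the LnCaP pair and 1.64 and 1.03 for the VCaP pair. In LAPC4 and LAPC4-CR, KRT14 was at 0.340 and 1.66 and KRT15 at 0.822 and 2.37. The other basal markers were not higher there: KRT5 was at 0.415 and 0.347, and TP63 at 0.218 and 0.216. The part of both marker groups in the results was not tested.

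The promoter windows of EGFR, EGF, TGFA and ERBB4 are shown because these genes had the largest differences between a resistant line and its parent. Each window is 300 bases from RefSeq on GRCh38.p14, from 250 bases before the annotated start to 50 after it, printed 5′ to 3′. Windows were found for 8 of the 10 genes. EGFR and TGFA have a further window each, not shown. Capitals mark every match, on either strand, to the motifs searched: the GC box GGGCGG, the TATA box with letters TATAAA, the CCAAT box, the AP-1 motif TGANTCA, the cyclic AMP response element TGACGTCA, and the half-site AGAACA of androgen and glucocorticoid receptors. The full androgen or glucocorticoid element, which contains the half-site on both strands, was searched too.
EGFR, chr7:55018767-55019066, plus strand: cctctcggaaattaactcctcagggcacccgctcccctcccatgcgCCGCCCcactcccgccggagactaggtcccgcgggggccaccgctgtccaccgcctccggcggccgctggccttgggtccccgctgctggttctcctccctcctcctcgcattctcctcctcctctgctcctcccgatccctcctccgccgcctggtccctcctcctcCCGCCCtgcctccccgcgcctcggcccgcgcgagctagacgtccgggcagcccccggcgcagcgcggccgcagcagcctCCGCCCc
EGF, chr4:109912633-109912932, plus strand: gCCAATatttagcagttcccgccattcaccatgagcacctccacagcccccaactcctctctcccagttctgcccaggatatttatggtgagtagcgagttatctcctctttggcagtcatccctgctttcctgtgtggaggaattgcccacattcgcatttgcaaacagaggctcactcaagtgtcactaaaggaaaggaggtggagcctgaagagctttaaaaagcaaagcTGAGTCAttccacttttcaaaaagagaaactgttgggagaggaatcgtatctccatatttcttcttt
TGFA, chr2:70553777-70554076, minus strand: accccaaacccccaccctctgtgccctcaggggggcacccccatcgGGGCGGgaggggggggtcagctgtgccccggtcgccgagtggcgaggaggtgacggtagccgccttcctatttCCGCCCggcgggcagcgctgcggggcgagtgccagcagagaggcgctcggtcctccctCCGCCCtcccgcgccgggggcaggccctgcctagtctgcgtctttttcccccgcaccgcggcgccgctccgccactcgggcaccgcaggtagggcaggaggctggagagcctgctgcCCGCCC
ERBB4, chr2:212538753-212539052, minus strand: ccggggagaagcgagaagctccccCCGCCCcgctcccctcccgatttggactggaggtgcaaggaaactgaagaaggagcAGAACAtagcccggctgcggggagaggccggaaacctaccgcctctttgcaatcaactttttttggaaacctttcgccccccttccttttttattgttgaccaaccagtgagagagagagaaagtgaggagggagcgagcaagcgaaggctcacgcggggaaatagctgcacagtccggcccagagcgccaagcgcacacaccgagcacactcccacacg

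The printed EGFR and TGFA windows held 75.3% G and C each, with 3 and 4 GC boxes and no TATA box, against a median of 58.7% over all 35116 windows, of which 45.0% held a GC box. The further EGFR window, not printed, held 42.0%, with 2 TATA boxes, 2 AP-1 matches, 1 half-site and no GC box. That of TGFA held 63.0%, with 1 half-site and no GC box. The EGF window had the lowest share of the 4 printed, at 46.7%. Its marked matches are a CCAAT at position -249 and an AP-1 match at position -17 from the start, where 7.71% of all windows held an AP-1 match. The ERBB4 window had 1 GC box and 1 half-site, the latter found in 14.8% of windows. No full element was found in the windows of the 8 genes, and 0.00285% of all windows held one. A match is a description of letters, and binding was not measured.

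Across the 3 pairs, no member passed the test of resistant against sensitive libraries. EdgeR's quasi-likelihood test, with the parental line as a block and Benjamini-Hochberg adjustment over 16231 genes, called 0 genes higher (0% of those tested) and 0 genes lower (0%) at the 5% level. At an unadjusted p under 0.05 it found 728 genes higher (4.49%) and 548 lower (3.38%), TGFA and ERBB2 among the higher. With DESeq2 82 genes were called higher (0.505%) and 55 lower (0.339%), with limma 0 and 0. When genes at low levels were kept in, edgeR called 95 higher (0.228%) and 58 lower (0.139%). An exact sign-flip test over 3 pairs cannot go below 0.25 (two-sided). Of the 10 members, 7 had a mean of at least 1 scaled FPKM and entered the fit, while AREG, EREG and NRG1 did not. Within a pair there is 1 library per state, so those differences carry counting intervals and no test. Since RNA came from whole cultures, fewer expressing cells and less RNA per cell cannot be told apart.

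**Figure D1:**
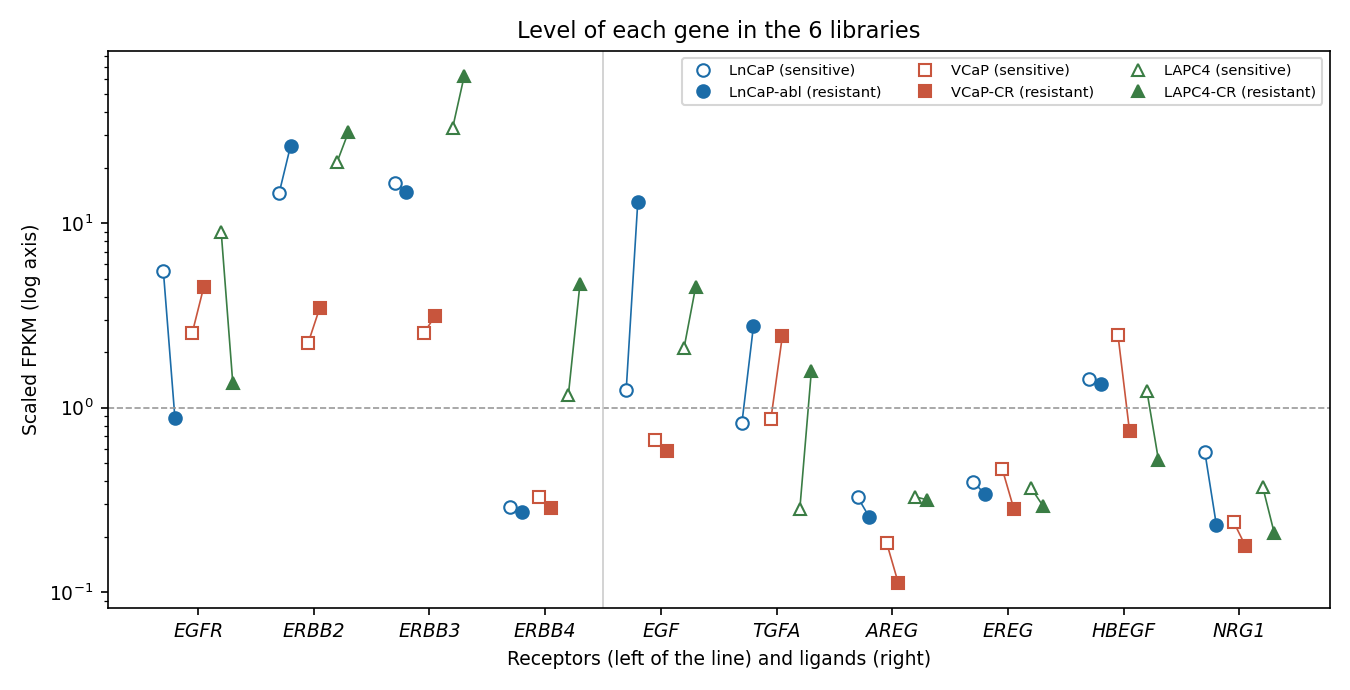
Scaled FPKM (log axis) of the 4 receptors and 6 ligands in each library; open symbols are sensitive and filled symbols resistant lines, joined within a pair, and the dashed line marks the minimum mean of 1. EGFR lies at 5.51 and 0.880 for the LnCaP pair and at 8.95 and 1.36 for the LAPC4 pair, and the 3 filled TGFA symbols (1.58 to 2.78) lie above the 3 open ones (0.281 to 0.865).

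EGFR, the receptor of EGF and TGFA (ENSG00000146648, chromosome 7, 55054208 to 55291807, hg18), was lower in 2 resistant lines and higher in the third. With the sensitive line first, the LnCaP pair had 662 and 135 counts, the VCaP pair 323 and 943, and the LAPC4 pair 1499 and 438. In scaled FPKM these were 5.51 and 0.880, 2.55 and 4.53, and 8.95 and 1.36. The 2 highest libraries were thus LAPC4 and LnCaP and the 2 lowest their resistant lines, with both VCaP libraries between, so the states overlapped. The level was 6.26-fold lower in LnCaP-abl (95% counting interval 5.20 to 7.59) and 6.59-fold lower in LAPC4-CR (5.92 to 7.35), and 1.78-fold higher in VCaP-CR (1.57 to 2.03). EGFR stood above 51.4% of tested protein-coding genes in LnCaP and 65.8% in LAPC4, but above 7.39% and 14.0% in the resistant lines. Over the pairs the edgeR log2 change was -1.61 (SE 0.78, adjusted p 0.654, lower in 2 of 3 pairs). The result changed without the VCaP pair: edgeR then gave -2.65 with an adjusted p of 0.0454, in a fit that called 13 genes higher and 20 lower. That fit leaves out the pair with the opposite direction, so it is no separate support for a fall. Over the alternatives the adjusted p ran from 0.0454 to 1.000. Without the LnCaP pair the log2 change was -0.93, and without the LAPC4 pair -0.88. A noncoding entry that overlaps EGFR had 16 to 36 counts per library. Neighbouring levels in the order of the 6 libraries had counting intervals that did not overlap.

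ERBB2, the partner receptor (ENSG00000141736, chromosome 17, 35097919 to 35138441, hg18), was higher in each resistant line than in its parent. The LnCaP pair, sensitive line first as in all such lists, had 736 and 1710 counts, the VCaP pair 120 and 304, and the LAPC4 pair 1508 and 4259. The scaled FPKM values were 14.5 and 26.3, 2.23 and 3.45, and 21.3 and 31.2. Both VCaP libraries were far below the other 4, so that the states overlapped while every pair pointed the same way. The ratio was 1.82 (1.67 to 1.99) in the LnCaP pair, 1.54 (1.25 to 1.92) in the VCaP pair and 1.47 (1.38 to 1.56) in the LAPC4 pair, none of them 2-fold. The mean log2 change on log2(scaled FPKM + 1) was 0.60 ± 0.19 (SD, n = 3 pairs), and 15.1% of tested genes were likewise higher in all 3 pairs. EdgeR gave a log2 change of 0.69 (SE 0.23, unadjusted p 0.0222, adjusted p 0.593). No member was past 2-fold in the same direction in all 3 pairs on log2(scaled FPKM + 1), as 0.0616% of tested genes were upward and 0.0986% downward, and for TGFA this depended on the pseudocount, as given with its values.

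ERBB3, the receptor of neuregulins with weak kinase activity (ENSG00000065361, chromosome 12, 54759908 to 54783556, hg18), was the most abundant receptor in LnCaP, LAPC4 and LAPC4-CR. Counts were 1327 and 1514 for the LnCaP pair, 215 and 438 for the VCaP pair, and 3677 and 13507 for the LAPC4 pair. The levels were 16.5 and 14.8, 2.53 and 3.15, and 32.8 and 62.6 scaled FPKM. The order followed the parental line, LAPC4 above LnCaP above VCaP, and the counting intervals of the VCaP libraries overlapped. The ratio was 1.91 (1.84 to 1.98) in the LAPC4 pair, 1.24 (1.05 to 1.47) in the VCaP pair and 0.893 (0.829 to 0.962) in the LnCaP pair. With TMM-scaled counts in place of scaled FPKM, the LnCaP change was -0.02, and with scaling factors from protein-coding genes it was -0.25. EdgeR gave a log2 change of 0.37 (SE 0.29, adjusted p 0.772), and 0.08 without the LAPC4 pair. In LAPC4-CR, ERBB3 exceeded 95.9% of tested protein-coding genes.

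For ERBB2 and ERBB3 both VCaP libraries lay at least 2-fold below the other 4 libraries on log2(scaled FPKM + 1). Of all tested genes, 1.12% did so. No other member set both libraries of a line apart in this way: 0.813% of tested genes did so with the LnCaP libraries above and 0.437% with them below, 2.50% with the VCaP libraries above, and 1.47% and 0.684% with the LAPC4 libraries above and below. With a pseudocount of 0.25, 3 members in place of 2 were set apart.

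ERBB4, the other neuregulin receptor (ENSG00000178568, chromosome 2, 211948691 to 213111810, hg18), was above 1 scaled FPKM in the LAPC4 libraries alone. The LnCaP pair had 35 and 42 counts, the VCaP pair 42 and 60, and the LAPC4 pair 197 and 1508. In scaled FPKM the first 4 libraries were at 0.273 to 0.330, with overlapping counting intervals between neighbours, against 1.17 in LAPC4 and 4.66 in LAPC4-CR. In the LAPC4 pair the summed basal markers were also higher, through KRT14 and KRT15 alone, and a link was not tested. The ratio was 3.97 (3.42 to 4.63) in the LAPC4 pair, where 5.22% of tested genes were at least 2-fold higher on log2(scaled FPKM + 1), 0.940 (0.586 to 1.52) in the LnCaP pair and 0.871 (0.578 to 1.32) in the VCaP pair. The edgeR log2 change of 0.62 (SE 0.51, adjusted p 0.781) rested on that pair and was -0.14 without it. ERBB4 passed the minimum mean through the LAPC4 libraries.

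The make-up of the receptor RNA differed accordingly between the lines. EGFR made up 15.0% of the summed scaled FPKM of the 4 receptors in LnCaP and 2.08% in LnCaP-abl, and 13.9% in LAPC4 and 1.36% in LAPC4-CR, but 33.3% in VCaP and 39.7% in VCaP-CR. In LnCaP-abl ERBB2 took the largest share (62.3%, against 39.3% in LnCaP), and in LAPC4-CR ERBB3 did (62.7%, against 51.1% in LAPC4). The sum itself was 36.8 and 42.2 in the LnCaP pair, 7.64 and 11.4 in the VCaP pair, and 64.2 and 99.8 in the LAPC4 pair. The ratio of ERBB2 to EGFR, which needs no scaling between libraries, was 2.63 and 29.9 for the LnCaP pair, 2.38 and 23.0 for the LAPC4 pair, and 0.877 and 0.761 for the VCaP pair.

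**Figure D2:**
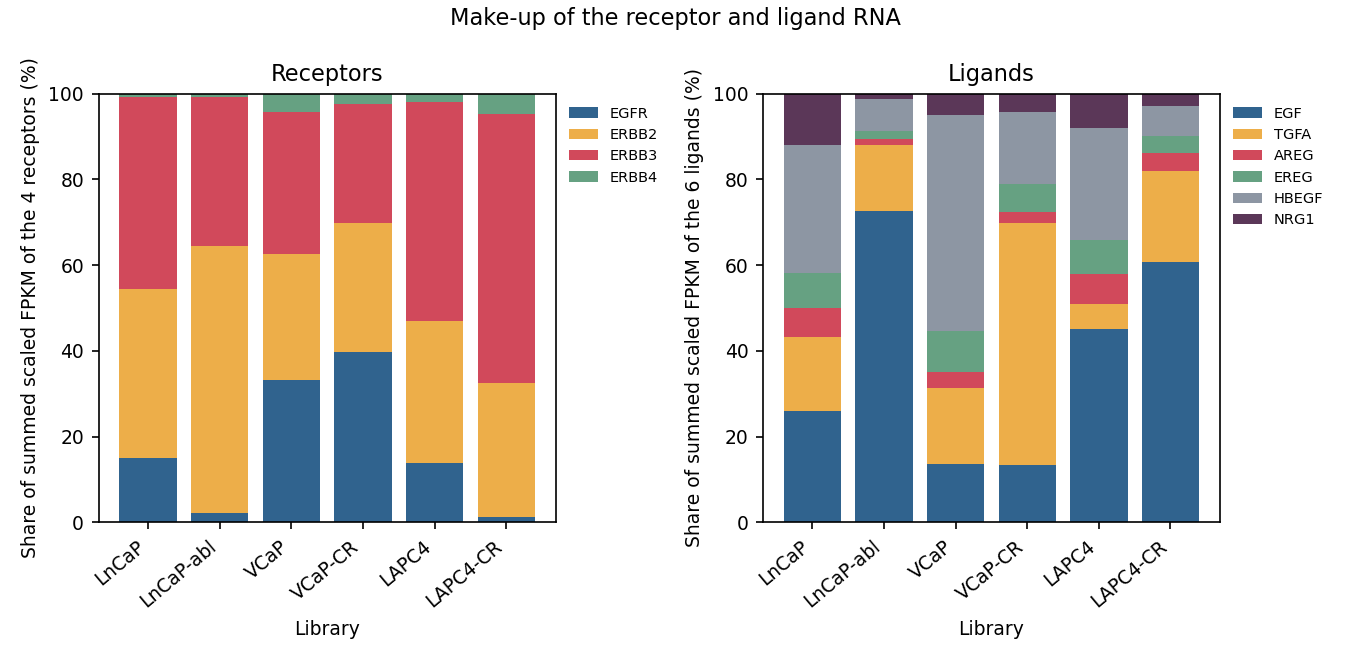
Share (%) of each gene in the summed scaled FPKM of the 4 receptors (left) and the 6 ligands (right), 1 bar per library. EGFR makes up 2.08% in LnCaP-abl and 1.36% in LAPC4-CR, while EGF takes 72.5% of the ligand RNA in LnCaP-abl and TGFA 56.4% in VCaP-CR.

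Among the ligands, TGFA (ENSG00000163235, chromosome 2, 70527920 to 70634833, hg18), which encodes transforming growth factor alpha, was higher in every resistant library than in any sensitive one. TGFA counts were 38 and 163 for the LnCaP pair, 42 and 196 for the VCaP pair, and 18 and 195 for the LAPC4 pair. The levels were 0.827 and 2.78, 0.865 and 2.46, and 0.281 and 1.58 scaled FPKM. The states did not overlap, as for 3.44% of tested genes with the resistant libraries above (3.22% had them below), and the mean was 0.658 ± 0.327 (SD, n = 3) in the sensitive and 2.27 ± 0.621 in the resistant libraries. The ratio was 3.36 (2.35 to 4.92) in the LnCaP pair, 2.85 (2.03 to 4.07) in the VCaP pair and 5.62 (3.47 to 9.69) in the LAPC4 pair. EdgeR gave the largest log2 change of the 7 fitted members, 1.91 (SE 0.36, unadjusted p 0.00134), with an adjusted p of 0.593. DESeq2 called it higher (adjusted p 0.00399), as did edgeR without a filter (adjusted p 0.0230), and over all alternatives the adjusted p ran from 0.00399 to 1.000. With each pair left out in turn the edgeR log2 change was 1.63 to 2.13. On log2(scaled FPKM + 1) its changes were 1.05, 0.89 and 1.01 (LnCaP, VCaP and LAPC4 pairs), so that the VCaP pair missed 2-fold. They were 1.49, 1.28 and 1.79 with a pseudocount of 0.25, and 1.66, 1.42 and 2.05 with TMM-scaled counts, past 2-fold in all 3 pairs, and 0.42, 0.35 and 0.32 with a pseudocount of 5. TGFA passed the minimum mean through the resistant libraries.

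EGF, the founding ligand of the family (ENSG00000138798, chromosome 4, 111053489 to 111152871, hg18), had the largest single difference of any member, in LnCaP-abl. EGF had 71 and 944 counts for the LnCaP pair, 40 and 57 for the VCaP pair, and 167 and 688 for the LAPC4 pair. This gave 1.25 and 13.0, 0.667 and 0.580, and 2.11 and 4.51 scaled FPKM. The LnCaP-abl library stood above all others, LAPC4-CR came next, and the VCaP libraries were lowest with overlapping counting intervals. EGF was 10.4-fold higher in LnCaP-abl than in LnCaP (8.17 to 13.4) and 2.14-fold higher in LAPC4-CR than in LAPC4 (1.80 to 2.55), while the VCaP ratio was 0.869 (0.570 to 1.34). The 2 lines in which EGF was higher are those in which its receptor EGFR was lower. The ratio of EGF to EGFR was 0.227, 0.262 and 0.236 in LnCaP, VCaP and LAPC4, and 14.8, 0.128 and 3.33 in LnCaP-abl, VCaP-CR and LAPC4-CR. Over the pairs, edgeR gave a log2 change of 1.45 (SE 0.68, adjusted p 0.651), and 0.51 without the LnCaP pair. A U6 small RNA entry lies inside the EGF locus, with 50 and 13 counts for the LnCaP pair, 123 and 108 for the VCaP pair, and 72 and 70 for the LAPC4 pair. How reads in the overlap were assigned is not given in the sources used here. The part of this entry in the EGF counts was not tested.

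HBEGF, the heparin-binding ligand (ENSG00000113070, chromosome 5, 139692612 to 139706400, hg18), was lower in VCaP-CR and LAPC4-CR. HBEGF had 40 and 48 counts for the LnCaP pair, 73 and 36 for the VCaP pair, and 48 and 39 for the LAPC4 pair. The levels were 1.43 and 1.34, 2.47 and 0.744, and 1.23 and 0.520 scaled FPKM. The LnCaP-abl value lay above that of LAPC4, so the states overlapped by that library. HBEGF was 3.33-fold lower in VCaP-CR (2.20 to 5.10) and 2.37-fold lower in LAPC4-CR (1.52 to 3.72), and its ratio in the LnCaP pair was 0.940 (0.605 to 1.47). EdgeR gave a log2 change of -1.01 (SE 0.43, unadjusted p 0.0509, adjusted p 0.627). HBEGF passed the minimum mean through the sensitive libraries, with a mean of 1.71 there and 0.869 in the resistant libraries. In VCaP, HBEGF made up 50.5% of the summed ligand level and TGFA 17.7%, and in VCaP-CR 17.0% and 56.4%.

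**Figure D3:**
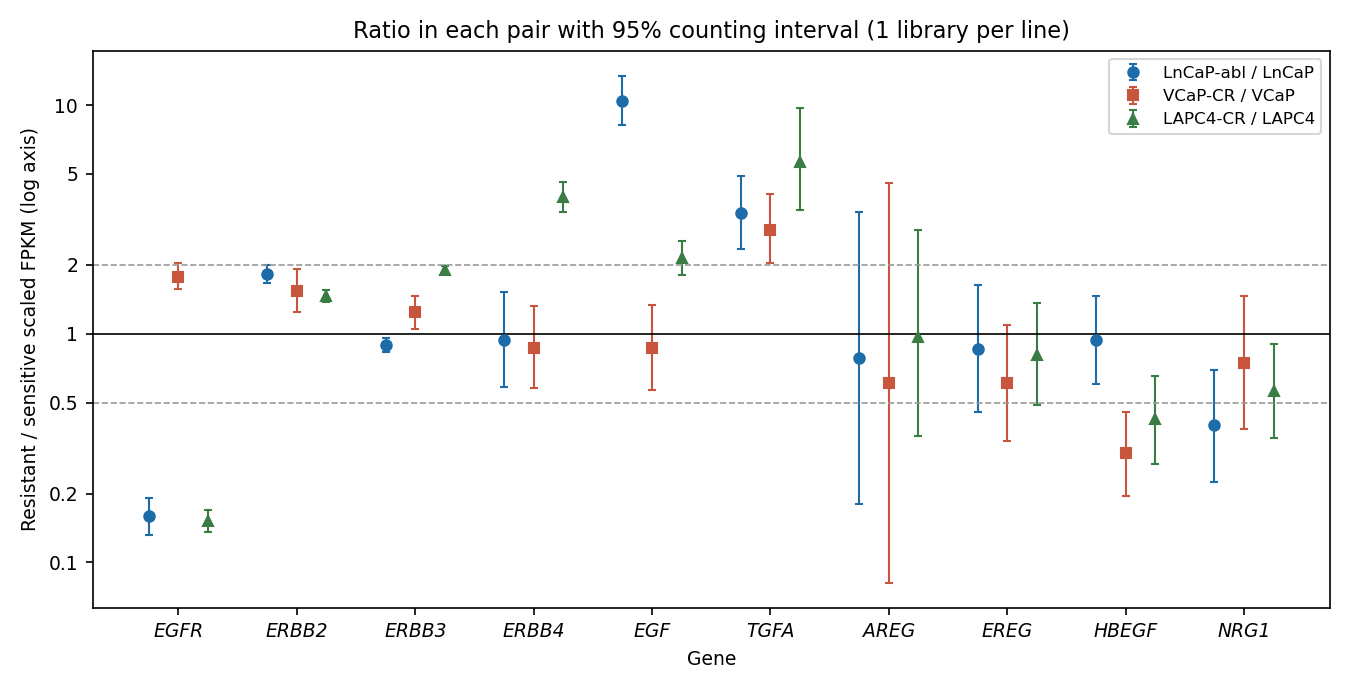
Ratio of scaled FPKM, resistant over sensitive (log axis), for each gene in each pair; bars are 95% intervals for counting error, with 1 library per line, and dashed lines mark 2-fold. The 3 TGFA intervals and the 3 ERBB2 intervals lie above 1, EGFR lies at 0.160 and 0.152 in 2 pairs and at 1.78 in the VCaP pair, and the AREG intervals are widest.

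On log2(scaled FPKM + 1), which understates differences of genes at low levels, few members were past 2-fold. In the LnCaP pair EGF (2.64) and TGFA (1.05) were at least 2-fold higher, against 6.23% of tested genes, and EGFR (-1.79) at least 2-fold lower, against 6.19%. In the VCaP pair 0 members were past 2-fold in either direction, with 2.37% of tested genes higher and 2.03% lower; TGFA (0.89) and HBEGF (-0.99) were closest. In the LAPC4 pair ERBB4 (1.38) and TGFA (1.01) were higher and EGFR (-2.08) lower, where 5.22% and 5.28% of tested genes were past 2-fold. Over all tested genes the median change was -0.01 (LnCaP pair), -0.01 (VCaP pair) and -0.02 (LAPC4 pair).

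The remaining ligands AREG, EREG and NRG1 were below 1 scaled FPKM in every library. AREG, amphiregulin (ENSG00000109321, chromosome 4, 75529715 to 75539590, hg18), had 3 to 13 counts per library and 0.113 to 0.329 scaled FPKM. Its near-identical copy AREGB had 2 to 30 counts, and with both summed the ratios were 1.23 (0.436 to 3.74), 0.610 (0.269 to 1.38) and 1.49 (0.810 to 2.88), in the order LnCaP, VCaP, LAPC4. How reads matching both copies were counted is not given in the sources used here, and no difference was detectable at this depth. EREG, epiregulin (ENSG00000124882, chromosome 4, 75449724 to 75473332, hg18), had 21 to 42 counts and 0.283 to 0.465 scaled FPKM. NRG1, neuregulin 1 (ENSG00000157168, chromosome 8, 31616444 to 32742090, hg18), had 41 and 21 counts for the LnCaP pair, 18 and 22 for the VCaP pair, and 37 and 40 for the LAPC4 pair, with levels of 0.179 to 0.578 scaled FPKM. For comparison, the 5 leukocyte markers ranged from 0.0672 to 1.99 over single genes and libraries. Other members' low levels lay in this range too, such as TGFA in the sensitive libraries (0.281 to 0.865) and HBEGF in VCaP-CR (0.744). So did ERBB4 in the LnCaP and VCaP pairs (0.273 to 0.330). The highest marker value was that of CD68 in LnCaP-abl, and the markers besides CD68 stayed at or below 0.800.

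For EREG and NRG1 all libraries next to each other in the order of levels had overlapping counting intervals. The lowest sensitive and highest resistant levels were 0.366 (LAPC4) and 0.340 (LnCaP-abl) for EREG, and 0.240 (VCaP) and 0.232 (LnCaP-abl) for NRG1. By value alone, every resistant library was below every sensitive one in scaled FPKM for both genes. Among 7961 protein-coding genes at a mean of 0.1 to 1 scaled FPKM, 12.2% were ordered that way and 27.3% were lower in all 3 pairs, as AREG, EREG and NRG1 were, and their median change was -0.13 (LnCaP pair), -0.02 (VCaP pair) and -0.07 (LAPC4 pair). The NRG1 ratio was 0.401 (0.225 to 0.695), 0.745 (0.382 to 1.47) and 0.561 (0.350 to 0.902) in these pairs, and all 3 EREG intervals included 1. In edgeR without a filter, the log2 changes of AREG, EREG and NRG1 were -0.10 (SE 0.58, adjusted p 0.996), -0.24 (SE 0.38, adjusted p 0.985) and -0.69 (SE 0.38, adjusted p 0.771). The other 5 ligands of the family (BTC, EPGN, NRG2, NRG3 and NRG4) were likewise under the minimum mean, and 0 of 5 entered the fit. BTC, betacellulin, reached 1.27 in VCaP, and the other 4 stayed at or below 0.834 in every library.

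The genes whose levels followed each receptor most closely were sought among protein-coding genes averaging 5 scaled FPKM or more (6393 for EGFR and ERBB4, 6392 for ERBB2 and ERBB3), by Pearson's r of log2(scaled FPKM + 1) over the 6 libraries. They were DCUN1D5 (0.957), ENO1 (0.940) and ZNF552 (0.926) for EGFR, and DCUN1D4 (0.998), TMEM9B (0.997) and PSMC5 (0.996) for ERBB2. For ERBB3 they were CDC73 (0.998), ACLY (0.997) and MORC4 (0.997), and for ERBB4 CDCA2 (0.994), IGFBP5 (0.993) and FAM20B (0.992). The 6 points share 3 parental lines and these are the highest values of all genes searched, so they are given as a description. ERBB4 was at 4.66 scaled FPKM in LAPC4-CR, 1.17 in LAPC4 and 0.273 to 0.330 elsewhere. Its r values therefore rest mostly on the LAPC4-CR library.

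Other genes of the pathway were read from 5 lists, and edgeR called 0 of their genes higher and 0 lower after adjustment. At an unadjusted p under 0.05 it found 1 sheddase higher, 3 inhibitors and turnover genes higher and 2 lower, 3 adaptors higher and 1 lower, 1 gene of the RAS-ERK chain higher and 1 of ERK output higher, where 4.49% of all tested genes were higher and 3.38% lower. Among the sheddases and their regulators, 6 of 9 entered. ADAM10, the sheddase of EGF, had 11.4 and 16.4 scaled FPKM in the LnCaP pair, 6.77 and 13.2 in the VCaP pair, and 8.70 and 22.5 in the LAPC4 pair. It was thus higher in each resistant line, with an edgeR log2 change of 0.96 (unadjusted p 0.00995, adjusted p 0.593). ADAM17, which sheds TGFA, AREG and HBEGF, had changes of 0.03, 0.63 and 0.63 on log2(scaled FPKM + 1) and an edgeR log2 change of 0.68 (adjusted p 0.664). The list's median change was 0.29, -0.03 and 0.48, in the order LnCaP, VCaP, LAPC4 used for the lists. Beside this and the list medians below, that of all tested genes was -0.01, -0.01 and -0.02. It covers noncoding genes too, and a median of protein-coding genes alone is not given here.

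All 14 receptor inhibitors and turnover genes entered, and their median changes were 0.32, 0.30 and 0.07. CBLC, a ubiquitin ligase of the CBL family, was at least 2-fold lower in the LnCaP pair (2.05 to 0.161 scaled FPKM, change -1.39). PTPRK, a receptor phosphatase, was at least 2-fold higher in the LAPC4 pair (2.55 to 11.7, change 1.83). It was also higher in LnCaP-abl (change 0.51) and VCaP-CR (0.56), with an edgeR log2 change of 1.47 (unadjusted p 0.00398, adjusted p 0.593). ERRFI1, an inhibitor that binds the EGFR kinase, had changes of 0.19, -0.49 and 0.02. RNF41, a ubiquitin ligase that targets ERBB3, was at 22.7 and 13.8, 21.0 and 16.7, and 16.7 and 8.59 scaled FPKM in the 3 pairs, lower in each resistant line (edgeR log2 change -0.66, unadjusted p 0.0344, adjusted p 0.603). RNF41, ERRFI1 and ADAM17 were named after their values were seen.

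Of 18 adaptors and first effectors, 17 entered, with median changes of 0.41, 0.18 and 0.09. GAB1, a docking protein, was higher in LnCaP-abl (0.640 to 2.51, change 1.10), and SRC, a cytoplasmic tyrosine kinase, was lower there (3.43 to 1.06, change -1.11). In the VCaP and LAPC4 pairs GAB1 changed by -0.14 and 0.13. SRC was lower in those pairs too, with changes of -0.61 and -0.29 (edgeR log2 change -0.88, unadjusted p 0.0326, adjusted p 0.600). PIK3R1 and PIK3R3, regulatory subunits of phosphoinositide 3-kinase, were both higher in LnCaP-abl and VCaP-CR than in their parents and differed in direction in the LAPC4 pair. PIK3R1 had its largest change in the VCaP pair (3.77 to 20.2 scaled FPKM, change 2.15), with 0.50 in the LnCaP pair and -0.85 in the LAPC4 pair. PIK3R3 had its largest in the LAPC4 pair (22.0 to 99.4, change 2.13), with 0.38 in the LnCaP pair and 0.65 in the VCaP pair (edgeR log2 change 1.11, unadjusted p 0.0263, adjusted p 0.596). STAT3, a transcription factor, was past 2-fold higher in both the VCaP (1.07) and LAPC4 (1.06) pairs and was named after its values were seen.

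All 12 genes of the RAS-ERK chain entered, with median changes of 0.34, 0.20 and 0.28. MAPK3, which encodes an ERK kinase, was higher in LnCaP-abl (3.53 to 8.87, change 1.12), and NF1, which switches RAS off, in VCaP-CR (12.8 to 28.2, change 1.08). Of 18 genes that report or restrain ERK output, 12 entered, with medians of -0.11, -0.07 and 0.08. DUSP4, a phosphatase induced by ERK, was at 4.78 and 0.816 scaled FPKM in the LnCaP pair (change -1.67) and at 54.5 and 113 in the LAPC4 pair (1.04). In the LAPC4 pair DUSP6, an ERK phosphatase, was at 1.59 and 4.44 (1.07), while EPHA2, a receptor kinase, was at 20.3 and 7.74 (-1.28). Of the 12 genes, 0 were past 2-fold higher and 2 lower in the LnCaP pair (DUSP4 and SPRY1, a feedback inhibitor, with 6.23% and 6.19% of all tested genes), 0 and 0 in the VCaP pair (2.37% and 2.03%), and 3 and 2 in the LAPC4 pair (5.22% and 5.28%). SPRY1 was named after its values were seen.

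**Figure D4:**
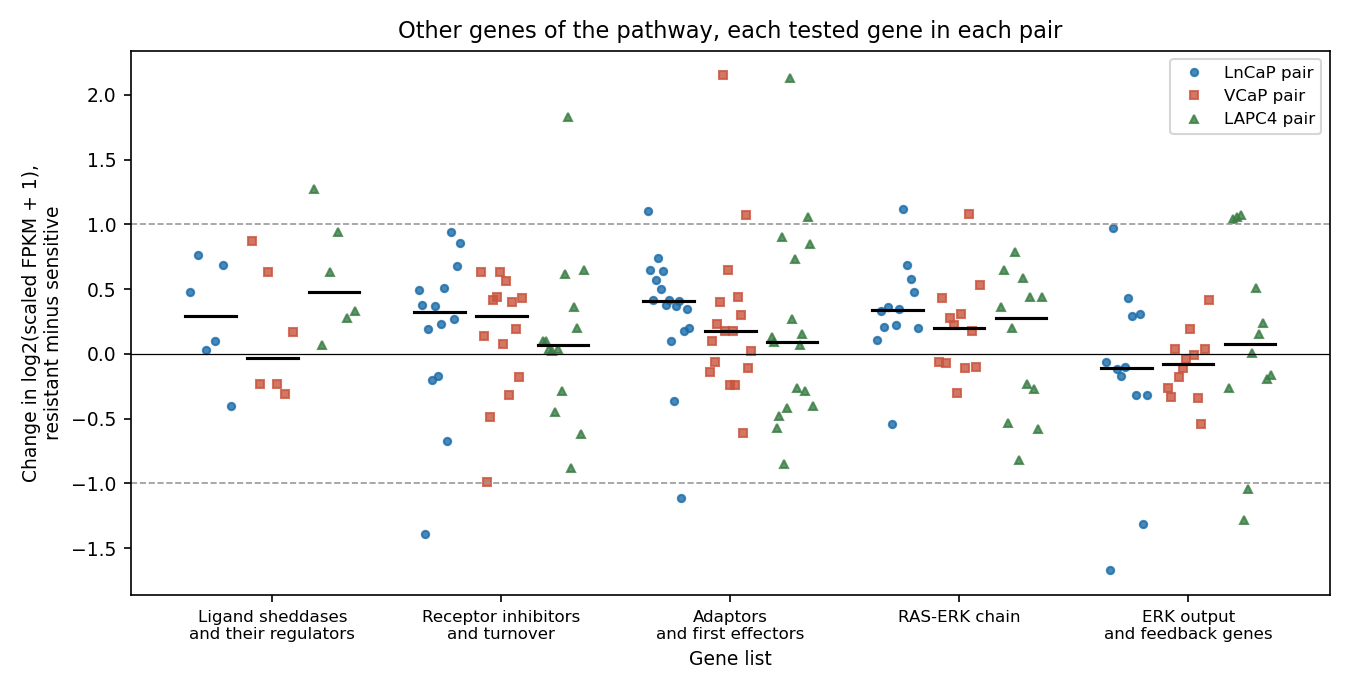
Change in log2(scaled FPKM + 1), resistant minus sensitive, of each listed pathway gene that entered the fit, by list and pair; black bars are medians and dashed lines mark 2-fold. Medians lie between -0.11 and 0.48, and the points farthest from 0 are PIK3R1 (2.15) in the VCaP pair and PIK3R3 (2.13) in the LAPC4 pair.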

How the data were processed

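RNA of 6 prostate cancer cell lines was analysed, 1 library each. Per the labels, RNeasy columns gave the RNA and a SOLiD Total RNA-Seq kit the libraries. HTSeq and the build hg18 are named in the submitters' processing notes; for aligner, annotation and strand use the entry is "not given in the sources used here". Per the file headers, each table holds counts per gene and FPKM, and the deposited FPKM was rebuilt within 0.488% from the count, the gene length and the summed counts. Printed starts have 1 added, because the deposited loci count them from 0 (30913 spans matched GENCODE 29 that way, and 650 otherwise).

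Entries sharing a symbol were summed and 8763 entries of small RNA classes left out. FPKM was divided by a median-ratio factor from 11600 genes reaching 1 FPKM in every library. Genes averaging 1 scaled FPKM or more were tested (16231, of which 11335 were protein-coding) with edgeR 4.0.16 on the counts (TMM, parental line as a block, R 4.3.3). DESeq2 1.42.0 and limma 3.58.1 were alternatives. Line names give the pairing; deviations from group means correlated at 0.46, 0.73 and 0.59 within pairs. On simulated counts of 16231 genes, 91% of 100 genes given a 4-fold change were found by edgeR, and 100% of 100 given a 16-fold change, beside 8 false calls. The simulation gave all genes a common dispersion (0.121), with no differences between parental lines and the same change in every pair. Changed genes were drawn only from those with higher counts. It therefore does not measure how many such changes would be found in these libraries. Changes within pairs use log2(scaled FPKM + 1). Intervals are exact (Poisson, or conditional binomial for ratios), at 95%, and cover counting error only. Nothing in the labels gives separate cultures. With parental line as a block, p-values measure how far the change differs between these pairs, and not a spread between cultures of a line.

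The members, the gene lists and the rule for named genes were chosen with earlier results of these data known. Named are the 10 members, list genes past 2-fold in all pairs, the largest rise and fall per list and pair if past 2-fold, and the 3 genes most like each receptor.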

Additional observations from a re-analysis of the deposited data

Results flagged for a closer look

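The change of 2 receptors pointed in opposite directions in different lines, with 95% counting intervals that excluded a ratio of 1 on both sides; with 1 library per state in each line, the difference between lines was not tested. EGFR was lower in the resistant line of 2 pairs and higher in VCaP-CR: on log2(scaled FPKM + 1), its LnCaP change less its VCaP change was -2.43, and its VCaP change less its LAPC4 change 2.72. ERBB3 was lower in LnCaP-abl and higher in VCaP-CR and LAPC4-CR, by a smaller margin: the LnCaP pair minus the VCaP pair gave -0.38, and the LnCaP pair minus the LAPC4 pair -1.06. The ERBB3 change in the LnCaP pair (-0.15) was -0.02 with TMM-scaled counts per library, without gene lengths. It was -0.25 with factors from protein-coding genes. The median change of all tested genes in that pair was 0.10 with the former and -0.09 with the latter.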

How the results depend on the processing

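Counts of genes called by edgeR over the pairs (0 higher, 0 lower) became 95 and 58 with genes at low levels kept and 82 and 55 under DESeq2. With single pairs omitted, between 0 and 13 were higher and between 1 and 20 lower. Without the replicate block edgeR also called 0 and 0. As the main fit called none, this cannot show whether the pairing changes calls. At an unadjusted p under 0.05, edgeR without the block found 251 higher and 161 lower, against 728 and 548 with it. Of 74 values of members' changes over the pairs under alternatives, 70 kept their direction and side of the threshold. The others were TGFA without a filter and in DESeq2, EGFR without the VCaP pair, and ERBB4 without the LAPC4 pair, which reversed to -0.14; with the other pairs omitted ERBB4 was at 0.99 and 1.05.

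Members past 2-fold within pairs depended on the scale. With a pseudocount of 5, the 2 higher members became 1 in the LnCaP pair and 0 in the LAPC4 pair, and the 1 lower member of the LnCaP pair became 0. With factors from protein-coding genes the 2 higher members became 1 in the LnCaP pair and 1 in the LAPC4 pair, and 1 member was lower in the VCaP pair. With a pseudocount of 0.25, and with TMM-scaled counts, 1 member was higher and 1 lower in the VCaP pair, and the latter scaling gave 4 higher in the LAPC4 pair. TMM-scaled counts moved the median of all genes to 0.10 (LnCaP pair), 0.09 (VCaP pair) and 0.14 (LAPC4 pair). Of 153 member changes within pairs under alternatives, 6 changed sign: ERBB4 and HBEGF in the LnCaP pair (0.04 each with TMM-scaled counts), and AREG, in the LAPC4 pair under 2 scalings (0.01 and 0.05) and when summed with AREGB (0.10 for LnCaP, 0.27 for LAPC4), a setting chosen after seeing the data.

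Over all tested genes, a pseudocount of 5 gave 357 higher and 298 lower past 2-fold for LnCaP (1012 and 1005 before), 124 and 81 for VCaP (384 and 329) and 252 and 308 for LAPC4 (848 and 857). A pseudocount of 0.25 gave 691 higher and 590 lower for VCaP, 1300 and 1342 for LAPC4, and 1607 lower for LnCaP. A minimum mean of 5 gave 524 and 521 (LnCaP), 205 and 143 (VCaP) and 488 and 453 (LAPC4). A test of only the protein-coding genes gave 457 lower for LnCaP, 240 higher and 219 lower for VCaP, and 533 lower for LAPC4. Fewer genes were entered in these 2 settings; otherwise the cause was not tested. Depth limits AREG, with 3 to 13 counts.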
